A study of Mus musculus with 48 samples.

Results

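ATF4 integrated stress response genes were examined in gastrocnemius, a mostly fast-twitch calf muscle, of mice given perfluorooctane sulfonate (PFOS), a persistent fluorinated surfactant. They comprise 10 listed genes, taken by name from the 54532 genes of the deposited count table. Atf3, Atf4, Atf5 and Ddit3 encode transcription factors. Trib3 and Sesn2 encode signalling regulators. Asns, Phgdh, Psat1 and Mthfd2 encode enzymes of amino acid and one-carbon synthesis. All 10 names were found, in 11 rows, because Ddit3 has a second, short row nested in it, without a count in any library. The 10 main rows were among the 15583 genes tested.

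The 48 libraries came from 1 mouse each, after PFOS by oral gavage for 21 days: the doses of 0, 1 and 10 mg/kg/day had 17, 16 and 15 mice. By its name, hCYP2B6-Tg is transgenic for human CYP2B6 and Cyp2b-null is without the mouse Cyp2b family, whose enzymes oxidise drugs and lipids in liver. The sources used here give no age, no promoter for the transgene and no statement on mouse Cyp2b in the transgenic line. Males and females of both genotypes formed 4 strata. Groups held 4 mice, except that hCYP2B6-Tg males had 5 controls and Cyp2b-null males had 3 mice at the higher dose.

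The integrated stress response begins when kinases that sense amino acid shortage, unfolded protein, haem shortage or double-stranded RNA phosphorylate the translation factor eIF2. General translation then falls while translation of Atf4 mRNA rises, so the protein can accumulate without more mRNA. ATF4 protein induces transcription factors, brakes such as Trib3, amino acid transporters and enzymes of amino acid synthesis. In skeletal muscle the response is known from mitochondrial disease and mitochondrial stress. Transcript counts report the RNA of these genes, not eIF2 phosphorylation or ATF4 protein.

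Total counts per library ran from 11571142 to 19921061. Library numbers rose with dose without overlap in 4 of 4 strata, so handling that followed those numbers and dose cannot be told apart within a stratum. Transcripts of muscle fibres were abundant: summed CPM (counts scaled to a common library size) of 9 fibre markers was 133000 to 192000 at 0 and 76600 to 150000 at 10 mg/kg/day. Transcripts of other tissues were present in some libraries. A set of 6 libraries with liver or lymph node transcripts, known from earlier results, was left out in 1 alternative fit, and its values are given where they changed a call. In bulk muscle, fewer cells of a type and less RNA per cell cannot be told apart.

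Levels per kilobase of gene length show how unlike the 10 genes are before treatment. At 0 mg/kg/day the mean level in CPM per kb was 63.6 for Atf4, 17.4 for Atf5, 5.98 for Ddit3 and 1.46 for Atf3. The other 6 genes lay lower, from 0.982 for Mthfd2 down to 0.334 for Psat1, with Sesn2 at 0.822, Phgdh at 0.649, Trib3 at 0.431 and Asns at 0.362. The 4 transcription factors were thus the 4 most abundant members, above both regulators and all 4 enzymes. Every member had at least 2 counts in each of the 48 libraries, and Trib3, with 990 counts over all of them, had the fewest.

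At 10 against 0 mg/kg/day, averaged over the 4 strata, 7 of the 10 genes rose and 0 fell (edgeR quasi-likelihood test, Benjamini-Hochberg adjusted p under 0.05 over all genes tested). The dose changed 47.5% of all genes tested, 25.0% upward and 22.5% downward. The 7 were Atf3, Atf4, Trib3, Sesn2, Asns, Phgdh and Psat1. Atf5, Ddit3 and Mthfd2 did not pass. The median log2 fold change of the 10 was 0.68, beside 0.04 over all genes tested. By class, 2 of 4 transcription factors rose with a class median of 0.26, 2 of 2 signalling regulators rose with a median of 0.68, and 3 of 4 synthesis enzymes rose with a median of 1.68. The difference between the classes is a description and was given no test.

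**Figure D1:**
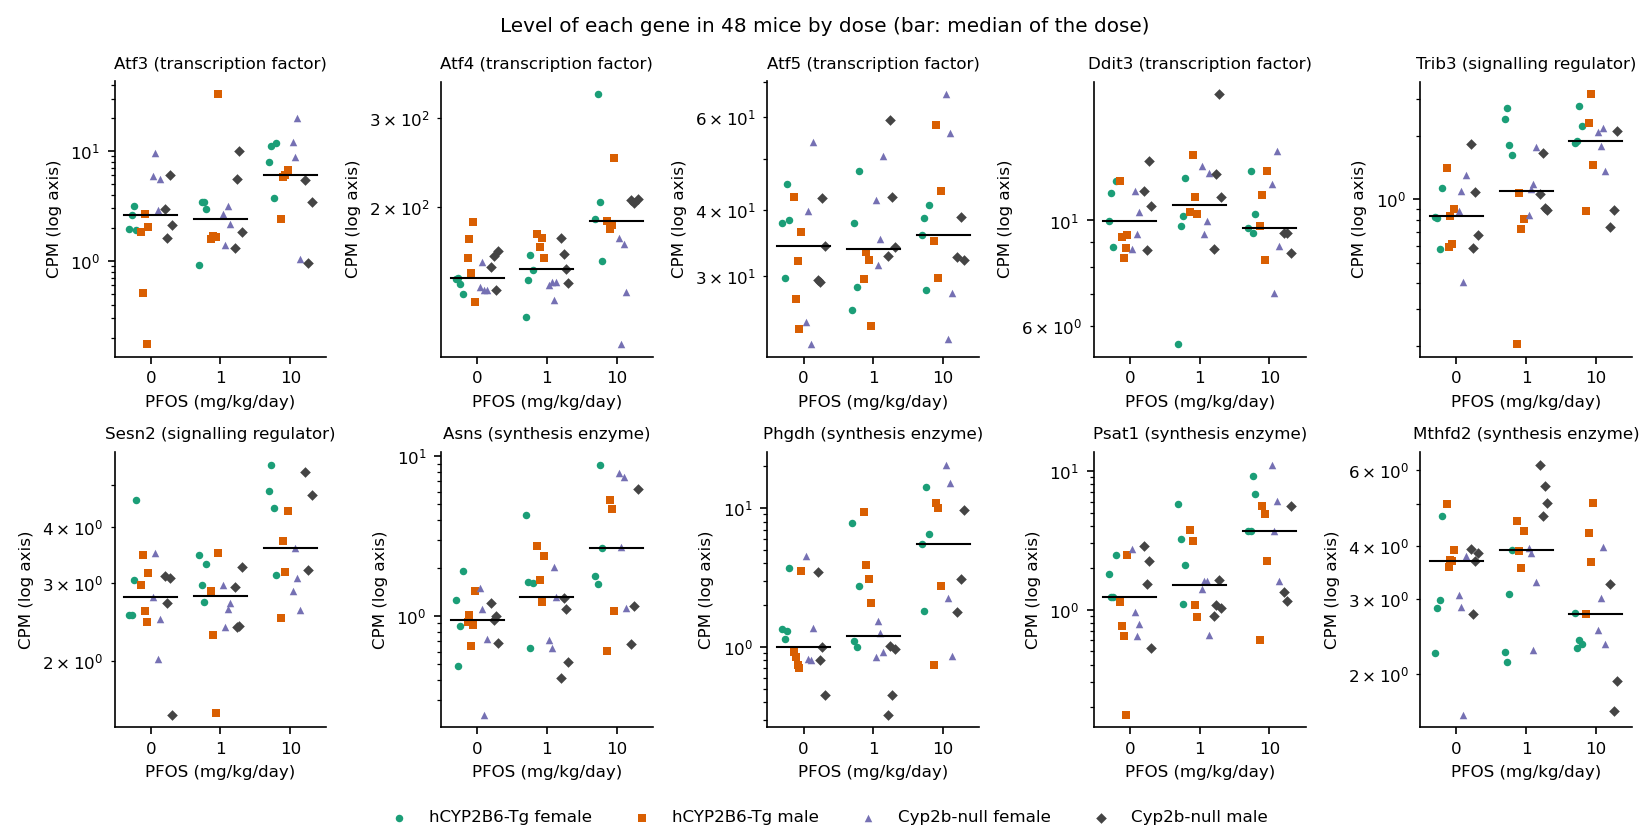
CPM (log axis) of each of the 10 genes in each of 48 mice at 0, 1 and 10 mg/kg/day PFOS; symbols and colours mark the 4 strata of genotype and sex, and the bar is the median of the dose. The 10 mg/kg/day mice spread widely for Asns (0.607 to 8.88 CPM) and Phgdh (0.742 to 20.6 CPM) and overlap the controls for every gene.

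Among the transcription factors, Atf4, the effector that gives the response its name, lies on chromosome 15 (80255184 to 80257541, plus strand; GRCm38, as all coordinates here). Its lowest, median and highest levels were 130.3, 145.1 and 186.8 CPM in controls, 121.4, 151.1 and 177.4 CPM at 1, and 107.6, 187.7 and 334.3 CPM at 10 mg/kg/day. Of the 15 mice at 10 mg/kg/day, 8 lay above every control and 1 lay below every control. The change was modest, 0.36 ± 0.07 on the log2 scale (a fold change of 1.28; edgeR adjusted p = 7.33e-05).

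Atf3 encodes an immediate early stress factor (chromosome 1, 191170296 to 191218039, minus strand). Its lowest, median and highest levels were 0.175, 2.62 and 9.54 CPM at 0, 0.919, 2.42 and 33 CPM at 1, and 0.956, 6.06 and 20 CPM at 10 mg/kg/day. The groups overlapped, with 4 of 15 mice at 10 mg/kg/day above every control. It rose by 1.14 ± 0.38 on the log2 scale (edgeR adjusted p = 0.0132). Without the 6 libraries it was 0.98 and did not pass (adjusted p = 0.0803).

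Atf5 encodes a factor linked to the mitochondrial unfolded protein response (chromosome 7, 44812256 to 44816658, minus strand). It ran from 22.3 to 53.9 CPM at 0 (median 34.2) and from 22.8 to 66.4 CPM at 10 mg/kg/day (median 35.9), with a log2 fold change of 0.16 ± 0.13 (edgeR adjusted p = 0.348, 95% interval -0.12 to 0.43). Ddit3 encodes CHOP, a factor tied to prolonged endoplasmic reticulum stress (chromosome 10, 127290774 to 127296288, plus strand). It ran from 8.33 to 13.3 CPM at 0 (median 9.99) and from 7.06 to 14 CPM at 10 mg/kg/day (median 9.66), with a log2 fold change of -0.02 ± 0.10 (edgeR adjusted p = 0.891, 95% interval -0.23 to 0.19). Neither gene differed beyond the spread between mice, and for Ddit3 the interval leaves out changes of the size measured for Atf4. Both share exonic bases with genes on the other strand: Atf5 with Nup62 and Il4i1 (82 bases with each), Ddit3 with Mars (68 bases) and Gm4189 (13 bases). The sources used here do not say whether counting used strand, so reads there cannot be told apart.

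Trib3 encodes a pseudokinase that restrains ATF4 and insulin signalling (chromosome 2, 152337422 to 152344032, minus strand). Its lowest, median and highest levels were 0.403, 0.833 and 1.84 CPM at 0, 0.205, 1.09 and 2.73 CPM at 1, and 0.741, 1.89 and 3.17 CPM at 10 mg/kg/day. Of the 15 mice at the higher dose 9 lay above every control, and the rise was 0.95 ± 0.20 on the log2 scale (edgeR adjusted p = 0.000156). Sesn2 encodes sestrin 2, a leucine-binding inhibitor of mTORC1 (chromosome 4, 132492032 to 132510501, minus strand). It ran from 1.51 to 4.61 CPM at 0 (median 2.79), from 1.52 to 3.51 CPM at 1 (median 2.79) and from 2.5 to 5.55 CPM at 10 mg/kg/day (median 3.6). Its log2 fold change was 0.41 ± 0.12 (edgeR adjusted p = 0.00342), and 4 of 15 mice at 10 mg/kg/day lay above every control.

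Asns encodes asparagine synthetase, the textbook ATF4 target (chromosome 6, 7675169 to 7693254, minus strand). Its lowest, median and highest levels were 0.242, 0.949 and 1.91 CPM at 0, 0.407, 1.31 and 4.31 CPM at 1, and 0.607, 2.68 and 8.88 CPM at 10 mg/kg/day. Mice at 10 mg/kg/day were divided among themselves, with 8 of 15 above every control and 2 of 15 at or below the control median. In Cyp2b-null females at that dose the 4 mice stood at 7.89, 2.7, 7.38 and 1.12 CPM, and in Cyp2b-null males the 3 mice stood at 0.667, 1.16 and 6.28 CPM. On the log2 scale this gave a rise of 1.80 ± 0.34 (edgeR adjusted p = 2.54e-05).

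Phgdh encodes the enzyme that commits a glycolytic intermediate to serine (chromosome 3, 98313170 to 98339990, minus strand). Its lowest, median and highest levels were 0.453, 0.999 and 4.49 CPM at 0, 0.326, 1.19 and 9.35 CPM at 1, and 0.742, 5.49 and 20.6 CPM at 10 mg/kg/day. In 8 of 15 mice at 10 mg/kg/day the level was above every control. It had the largest log2 fold change of the 10 genes, 2.05 ± 0.41 (a fold change of 4.13; edgeR adjusted p = 6.52e-05).

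Psat1 encodes the next enzyme of serine synthesis (chromosome 19, 15904678 to 15947337, minus strand). It ran from 0.175 to 2.85 CPM at 0 (median 1.23), from 0.658 to 5.72 CPM at 1 (median 1.51) and from 0.607 to 11.1 CPM at 10 mg/kg/day (median 3.71). In 10 of 15 mice at 10 mg/kg/day the level was above every control, and Psat1 rose by 1.55 ± 0.32 on the log2 scale (edgeR adjusted p = 9.64e-05). Mthfd2 encodes a mitochondrial enzyme of folate one-carbon metabolism (chromosome 6, 83305691 to 83325908, minus strand). It ran from 1.61 to 5.01 CPM at 0 (median 3.68), from 2.14 to 6.19 CPM at 1 (median 3.9) and from 1.64 to 5.04 CPM at 10 mg/kg/day (median 2.77). Its log2 fold change was -0.25 ± 0.12 and did not pass (edgeR adjusted p = 0.089), so among the synthesis enzymes it alone had a lower mean at 10 than at 0 mg/kg/day.

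The sequence upstream of the starts of the 10 genes was read for the composite C/EBP-ATF element that ATF4 dimers bind, because several of these genes moved together. The letters searched were TGATGNAA on both strands, in the 250 bases before each RefSeq start (GRCm38.p6), with 12 starts for the 10 genes. They were found for 2 of the 10 genes, Asns and Atf3, beside 3.91% of the 27025 RefSeq genes (3.45% of their 32851 starts). The palindrome TGACGTCA, the cyclic AMP response element, was found for 0 of the 10 genes, beside 1.77% of all genes (1.55% of starts), so in these genes no match of one motif overlapped the other. Both stretches are printed because both genes rose at 10 mg/kg/day. Capitals mark the matched letters, which read as the reverse complement in Atf3. The first matched base lies 23 bases before the start in Asns and 110 in Atf3.
Asns, chr6:7693214-7693243, minus strand: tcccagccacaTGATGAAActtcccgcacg
Atf3, chr1:191183425-191183454, minus strand: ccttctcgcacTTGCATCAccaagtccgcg
A match is a description of the letters, and the other 8 genes have no match in this window, which says nothing of letters elsewhere. Both stretches lie inside the span the table gives the gene, whose start there is farther upstream than RefSeq's.

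At the lower dose, averaged over strata, no change was detected in the 10 genes. In the comparison of 1 with 0 mg/kg/day, which shares its control mice with the one above, 0 of 10 genes passed by edgeR, DESeq2 or limma voom (0% of all genes tested by edgeR). At an unadjusted p under 0.05 the count of members was 0 by edgeR, 0 by DESeq2 and 1 by limma voom, and 577 of all genes fell under it by edgeR. The largest of the 10 estimates were 0.52 ± 0.39 for Atf3, 0.51 ± 0.35 for Asns and 0.38 ± 0.21 for Trib3, with 95% intervals of -0.26 to 1.31, -0.20 to 1.22 and -0.04 to 0.80. Atf4 was at 0.03 ± 0.07 (95% interval -0.11 to 0.17), so a change at 1 mg/kg/day as large as the one at 10 mg/kg/day lies outside its interval. For Phgdh (0.18 ± 0.44, 95% interval -0.71 to 1.07) the interval is wide but ends below the estimate at 10 mg/kg/day.

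Tested directly, 10 against 1 mg/kg/day gave 6 genes higher and 1 lower, beside 24.7% and 22.2% of all genes tested (46.9% in either direction). The log2 fold changes were 1.87 ± 0.42 for Phgdh, 1.30 ± 0.33 for Asns, 1.22 ± 0.32 for Psat1, 0.57 ± 0.20 for Trib3, 0.46 ± 0.12 for Sesn2 and 0.33 ± 0.07 for Atf4. Mthfd2 fell by 0.42 ± 0.12 (edgeR adjusted p = 0.00438). The doses lay farthest apart in Cyp2b-null males, where its mean was 3.56 CPM at 0, 5.35 CPM at 1 and 2.28 CPM at 10 mg/kg/day. At 1 and 10 mg/kg/day the means were 2.85 and 2.46 CPM in transgenic females. They were 4.08 and 3.94 CPM in transgenic males and 3.34 and 2.97 CPM in null females. Atf3 did not pass here (0.62 ± 0.38, edgeR adjusted p = 0.185). It did without 1 library, the hCYP2B6-Tg male numbered 4 at the lower dose, where it had 490 counts: the log2 fold change was then 1.25 (adjusted p = 0.00144). Trib3 did not pass without the Cyp2b-null male numbered 3 at the higher dose (0.41, adjusted p = 0.105).

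**Figure D2:**
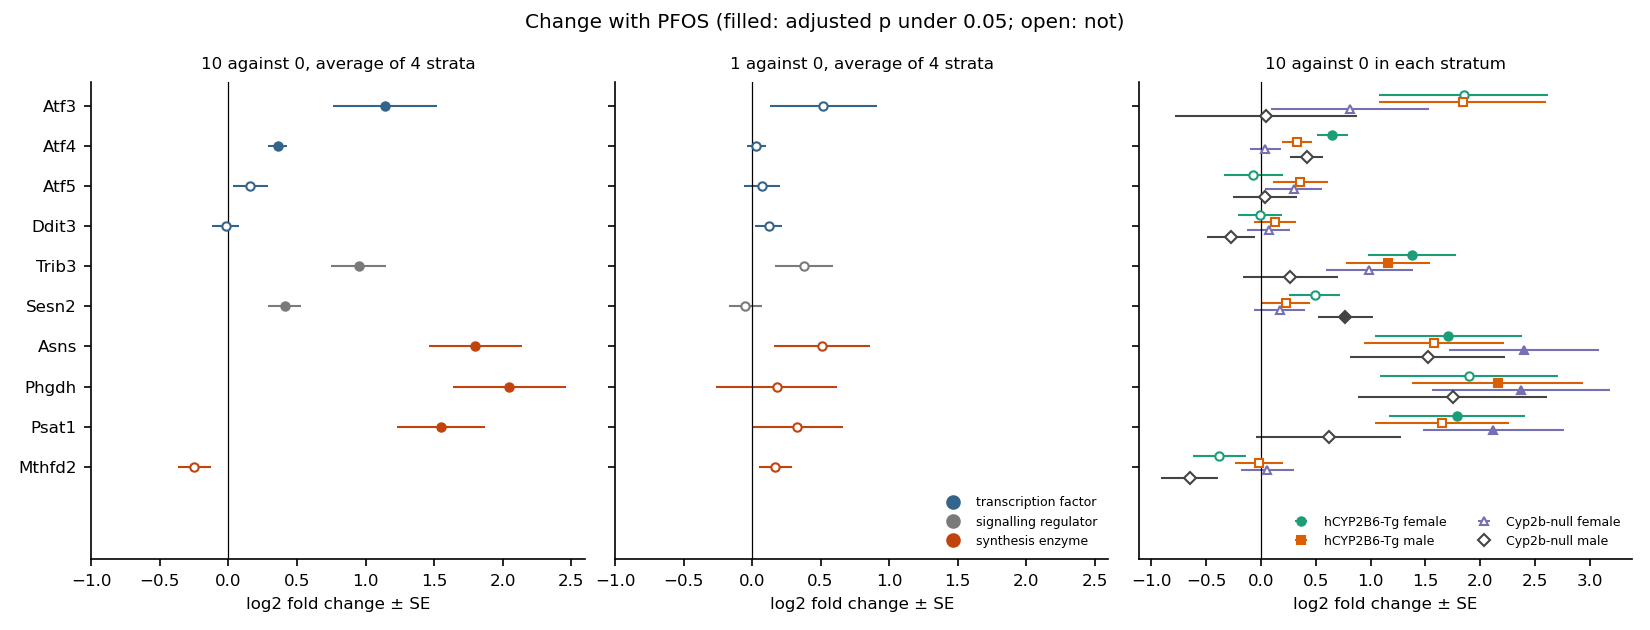
Log2 fold change ± SE of each gene for each dose against 0, averaged over the strata (colour: class of gene) and for 10 against 0 in each stratum (colour and symbol: stratum). Filled symbols passed at an edgeR adjusted p under 0.05; all 10 are open at 1 mg/kg/day, and Asns, Phgdh and Psat1 lie farthest to the right in the left panel.

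The strata were then read one by one. In hCYP2B6-Tg females 4 of 10 genes rose at 10 against 0 mg/kg/day, beside 14.2% of all genes tested (27.7% changed, 13.5% downward): Atf4 (0.65 ± 0.14), Trib3 (1.38 ± 0.40), Asns (1.71 ± 0.67) and Psat1 (1.79 ± 0.62). All 4 treated females lay above all 4 controls for Atf3, Atf4, Trib3 and Psat1, beside 10.4% of all genes tested that separated upward in this way. Atf4 stood at 189.3, 334.3, 204.7 and 157 CPM in the treated mice and at 144.5, 145.1, 141.5 and 135 CPM in their controls. Atf3 stood at 8.01, 11.2, 3.74 and 11.8 CPM against 1.94, 2.62, 3.13 and 1.91 CPM, and its 1.85 ± 0.77 did not pass (edgeR adjusted p = 0.0678). It passed in 3 of 48 fits that each left out 1 library, with the lowest adjusted p (0.0208) without the male with 490 counts at the lower dose. The call of Asns, with an adjusted p of 0.0499, was lost in 30 of the 48 such fits, most of them without a mouse of another group. Without replicate 3 at 10 mg/kg/day its log2 fold change was 0.82 (adjusted p = 0.414). The call of Psat1 was lost in 4 of the 48, with 1.48 (adjusted p = 0.0961) without that same mouse.

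In hCYP2B6-Tg males 2 of 10 genes rose, beside 7.92% of all genes tested (18.5% changed, 10.6% downward): Trib3 (1.16 ± 0.38) and Phgdh (2.16 ± 0.78). Trib3 stood at 0.877, 2.31, 3.17 and 1.45 CPM against 0.593 to 1.41 CPM in 5 controls, and lost its call without any of 5 mice of these groups, down to 0.82 (adjusted p = 0.196) without replicate 3 at 10 mg/kg/day. Phgdh lost its call without any of 6 mice, down to 1.74 (adjusted p = 0.166) without replicate 2 at that dose. Without the 6 libraries 0 of the 10 passed there. In Cyp2b-null females 3 of 10 rose, beside 5.83% (12.7% changed, 6.87% downward): Asns (2.40 ± 0.68), Phgdh (2.37 ± 0.81) and Psat1 (2.12 ± 0.64). Phgdh stood at 20.6, 2.25, 15.2 and 0.868 CPM in these treated females, so 2 of the 4 lay within the control range of 0.806 to 4.49 CPM, and without the 6 libraries 1 of the 10 genes passed. Phgdh and Psat1 each lost the call without any of 5 mice and Asns without any of 3. Without replicate 1 at 10 mg/kg/day the estimates were 1.70, 1.56 and 2.05. In Cyp2b-null males 1 of 10 rose, beside 7.44% (15.8% changed, 8.36% downward): Sesn2 (0.77 ± 0.25), at 5.34, 3.21 and 4.74 CPM against 3.1, 2.7, 3.07 and 1.51 CPM in controls. Without the 6 libraries 0 passed there, and the group then held 2 treated mice. Shares over all genes within strata are not given here for the fit without the 6 libraries. Its counts show how calls moved and are no result about the members. The call of Sesn2 was lost without any of 3 mice, down to 0.58 (adjusted p = 0.126) without control replicate 4.

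The estimate for Atf4 was 0.65 in hCYP2B6-Tg females, 0.33 and 0.42 in transgenic and null males, and 0.04 ± 0.14 in Cyp2b-null females, where those for Asns, Phgdh and Psat1 were 2.40, 2.37 and 2.12. The place of the transgenic females rested on 1 mouse: without replicate 2 at 10 mg/kg/day (334.3 CPM) Atf4 was at 0.38 there (adjusted p = 0.0287). These differences between strata were not established. For the effect of 10 mg/kg/day among the 4 strata, 0 of 10 genes passed, beside 0.648% of all genes tested. The lowest adjusted p was 0.289, for Atf4, which was also the 1 member under an unadjusted 0.05 by edgeR, as by DESeq2 (0 by limma voom, and 0 passed by either). Between the sexes and between the genotypes 0 of 10 passed by edgeR, DESeq2 or limma voom and 0 were under an unadjusted 0.05. Of all genes 0.128% passed between the sexes (0.0706% with the larger effect in females, 0.0578% in males) and 0% between the genotypes. The 95% intervals were wide for the enzymes, as in Asns, whose difference between females and males ran from -0.86 to 1.88.

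Without PFOS no difference between strata was detected in these genes. Between the sexes at 0 mg/kg/day 0 of 10 passed, beside 7.59% of all genes tested (2.86% higher and 4.73% lower in females), and 0 were under an unadjusted 0.05 by edgeR or DESeq2 (1 by limma voom). Between the genotypes 0 of 10 passed, beside 0%, and 1 member was under an unadjusted 0.05 by edgeR and by DESeq2 (0 by limma voom): Atf3, higher in Cyp2b-null mice by 1.22 ± 0.55. In 1 against 0 mg/kg/day within strata 0 of 10 passed by edgeR or DESeq2 in each, beside 0% of all genes in 3 strata and 0.0128% in hCYP2B6-Tg males. The members under an unadjusted 0.05 by edgeR, as by DESeq2, numbered 1 in females and 2 in males of the transgenic line, and 0 and 1 in those of the null line (1, 0, 0 and 1 by limma voom). One of these was Trib3 in hCYP2B6-Tg females, at 2.4, 2.73, 1.81 and 1.62 CPM against 0.82, 0.817, 0.582 and 1.13 CPM in controls (log2 fold change 1.34 ± 0.41, edgeR adjusted p = 0.664), which passed by limma voom (1.53, adjusted p = 0.0384). By edgeR the others were Atf3 (2.71 ± 0.75) and Phgdh (1.75 ± 0.79) in hCYP2B6-Tg males and Mthfd2 (0.59 ± 0.23) in Cyp2b-null males. Without hCYP2B6-Tg male replicate 4 at 1 mg/kg/day Atf3 was at 0.17.

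Transcripts of fat cells moved with Asns, Phgdh and Psat1. Of 15 adipocyte markers 13 rose at 10 against 0 mg/kg/day and 1, Car3, fell, beside 25.0% and 22.5% of all genes tested. Their mean log2 CPM was 2.91 ± 1.03 (SD, n = 17) at 0, 3.22 ± 1.40 (n = 16) at 1 and 4.70 ± 1.25 (n = 15) at 10 mg/kg/day. Their summed level was 2130 to 5450 CPM at 0 and 2120 to 4830 CPM at 10 mg/kg/day, mostly Car3, which muscle fibres also express; without Car3 it was 359 to 917 and 630 to 2940 CPM. Adipoq, Cfd, Cidec and Plin1 were above 0 in every library, while Lep, Adrb3, Slc7a10 and Acvr1c were at 0 in 6, 4, 3 and 2 libraries. By stratum, 1 of the 15 markers rose and 1 fell in hCYP2B6-Tg females (median log2 fold change 1.29), beside the 14.2% and 13.5% of all genes given above. In the transgenic males 11 rose (median 2.57). In the null females 8 rose and 1 fell (median 3.02), and in the null males 0 passed (median 1.39). Of all genes 7.92% rose in transgenic males, 5.83% rose and 6.87% fell in null females, and 15.8% changed in null males. The median was thus above 1 in all 4 strata.

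Markers of other cell types also changed at 10 against 0 mg/kg/day, beside 25.0% of all genes higher and 22.5% lower. Of 11 lymph node and lymphocyte markers 9 rose and 1 fell (summed level 15.9 to 349.9 CPM at 0 and 3.46 to 200.8 CPM at 10 mg/kg/day), with Glycam1 at 0 in 40 libraries. Of 9 macrophage markers 5 rose (12.5 to 115.5 and 39.3 to 110.8 CPM). Of 6 liver markers tested from a list of 13, 2 rose: Trf (mean 1.15 and 4.42 CPM at 0 and 10 mg/kg/day) and Cyp2e1 (10.9 and 61.3 CPM). Alb, at 0 in 16 libraries, did not pass (mean 1.1 and 0.768 CPM, edgeR adjusted p = 0.447). Of 6 fibroblast markers 2 rose and 4 fell (133.8 to 1240 and 311.1 to 626.9 CPM), and of 9 muscle fibre markers 1 rose and 5 fell. The part of these cell types in the members' changes was not tested. For fat cells, correlations with the marker level and a fit with that level as a covariate are given below.

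Across the 48 mice, after the mean of each group was removed, the level of these markers followed Phgdh with Pearson r = 0.91 and Spearman rho = 0.89 (each permutation p = 1e-05, which is the lowest value possible with 1e+05 permutations, or 3.33e-05 adjusted over 10 genes). For Psat1 r was 0.84 and rho 0.80, and for Asns r was 0.75 and rho 0.70, at that same permutation p. Trib3 was weaker, with r = 0.42 and rho = 0.47 (adjusted permutation p = 0.0325 and 0.00805). Without the 2 libraries farthest from the median on the x axis, r was 0.91 for Phgdh, 0.80 for Psat1, 0.74 for Asns and 0.49 for Trib3. The other 6 genes did not pass in r: Sesn2 was at 0.32, Mthfd2 at 0.23, Atf5 at 0.20, Atf3 at 0.10, Ddit3 at -0.07 and Atf4 at -0.30. Within the 15 mice at 10 mg/kg/day r was 0.95 for Phgdh, 0.94 for Psat1, 0.91 for Asns and 0.83 for Trib3. Within the 17 controls it was 0.91 for Phgdh, 0.85 for Psat1, 0.64 for Asns and -0.66 for Atf4 (adjusted permutation p = 0.0005, 0.00145, 0.0313 and 0.0313). Within the 16 mice at 1 mg/kg/day Phgdh alone of the 10 passed, with r = 0.86 (adjusted permutation p = 0.0177).

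**Figure D3:**
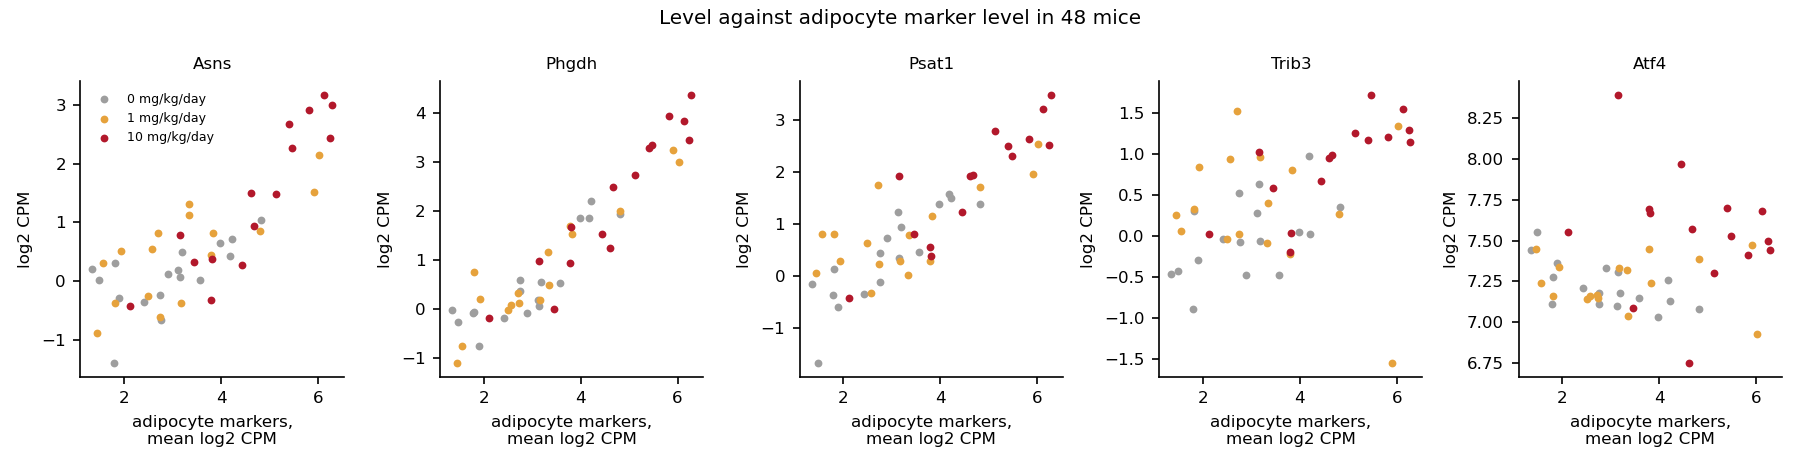
Log2 CPM of Asns, Phgdh, Psat1, Trib3 and Atf4 (y axes) against the mean log2 CPM of 15 adipocyte markers (x axes) in 48 mice, coloured by dose. Phgdh climbs with the marker level at every dose and Atf4 does not. Within doses r for Phgdh was 0.86 to 0.95 after group means were removed, whereas the points are plotted with group means kept. The mice at 10 mg/kg/day span marker levels of 2.12 to 6.28.

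With the marker level as a covariate in the edgeR fit, 1 of the 10 genes rose at 10 against 0 mg/kg/day and 1 fell, beside 17.9% of all genes higher and 16.9% lower in that fit. Atf4 rose by 0.46 (adjusted p = 4.23e-05), and Mthfd2 fell by 0.37 (adjusted p = 0.0473). Phgdh was then at 0.10 in place of 2.05, Psat1 at 0.26 in place of 1.55 and Asns at 0.38 in place of 1.80, with adjusted p of 0.77, 0.417 and 0.345. Trib3 was at 0.53 (adjusted p = 0.0721), Sesn2 at 0.28 (adjusted p = 0.108) and Atf3 at 1.23 (adjusted p = 0.0543), none past the threshold. The marker level itself rose with dose, so the covariate also takes up whatever part of the dose difference runs in parallel with it. In which cells the enzymes were transcribed was not measured in these bulk libraries.

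**Figure D4:**
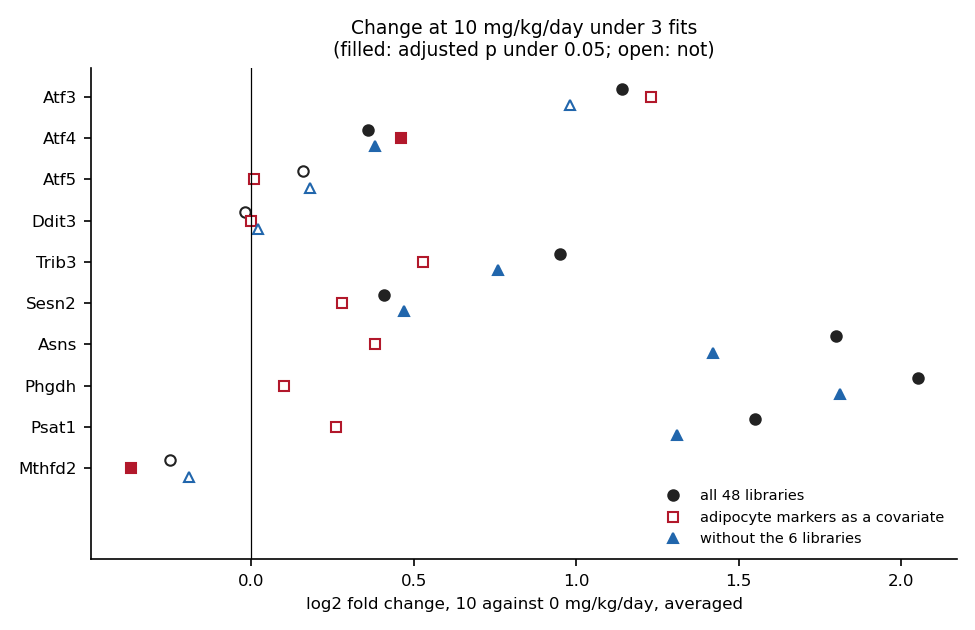
Log2 fold change of each gene at 10 against 0 mg/kg/day in the fit to all 48 libraries, with the adipocyte marker level as a covariate, and without 6 libraries that hold liver or lymph node transcripts; filled symbols passed. Asns, Phgdh and Psat1 drop to between 0.10 and 0.38 with the covariate, and Atf4 stays filled in all 3 fits.

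Among themselves the genes fell into sets when group means were removed. Of 45 pairs 7 passed in Pearson r (permutation, adjusted over 45), all positive. Asns, Phgdh and Psat1 were tied to each other, with r = 0.81 for Asns and Phgdh, 0.75 for Asns and Psat1 and 0.84 for Phgdh and Psat1 (rho 0.74, 0.75 and 0.80; each permutation p = 1e-05, adjusted p = 0.00015). Trib3 joined them through Asns (r = 0.57, rho = 0.58, adjusted permutation p = 0.00279 and 0.00225) and Phgdh (r = 0.44, rho = 0.50, adjusted permutation p = 0.0363 and 0.0121). The other pairs were Atf5 with Ddit3 (r = 0.64, rho = 0.69, adjusted permutation p = 0.00124 and 0.000225) and Sesn2 with Mthfd2 (r = 0.46, rho = 0.47, adjusted permutation p = 0.0168 and 0.0141). Without the 2 farthest libraries r in these 7 pairs, in the order given, was 0.80, 0.73, 0.82, 0.61, 0.50, 0.60 and 0.53. Atf4 did not follow the enzymes, with r of -0.13 for Asns, -0.16 for Phgdh and -0.21 for Psat1 (adjusted permutation p = 0.668, 0.600 and 0.434).

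**Figure D5:**
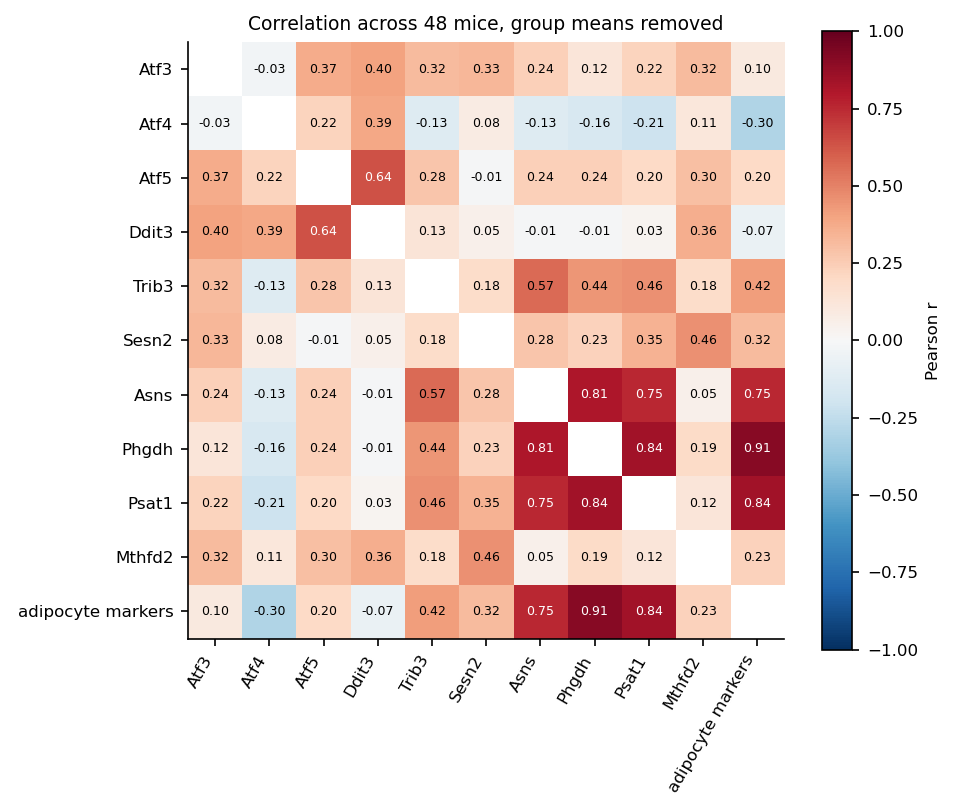
Pearson r between the log2 CPM of each pair of genes, and of each gene with the mean of 15 adipocyte markers, across 48 mice after the mean of each of 12 groups was removed. Asns, Phgdh, Psat1 and the markers form a block with r from 0.75 to 0.91, and the row of Atf4 is near 0 or negative against them.

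The genes most like Asns over the 48 libraries, group means kept, were Car5b (r = 0.88), Cebpa (0.86), Dram1 (0.86), Pparg (0.86) and Slc1a5 (0.84), out of 10549 genes compared. Those most like Atf4 were Clk4 (0.86), Gas5 (0.85), Sqstm1 (0.84), Gtpbp4 (0.84) and Psmd7 (0.84). The lists have no gene in common. Pparg is one of the 15 adipocyte markers, and Cebpa is a textbook regulator of fat cells. Slc1a5 is among the amino acid transporters read below, and Sqstm1 is among the other stress targets read there.

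The wider pathway was read from 6 lists of other genes. Each count is to be set against the 25.0% of all genes that rose and the 22.5% that fell in this comparison (17.9% and 16.9% with the adipocyte covariate). Of 9 eIF2 kinases, phosphatase subunits and parts of the mitochondrial relay, 3 rose and 1 fell, near those shares, with a median log2 fold change of 0.05. Ppp1r15a (GADD34), which directs dephosphorylation of eIF2 and closes the response, went from 28.5 ± 5.47 CPM at 0 to 52.3 ± 30.6 CPM at 10 mg/kg/day (SD, n = 17 and 15; log2 fold change 0.81 ± 0.13). By stratum the estimate for Ppp1r15a was 1.69 and 0.53 in transgenic females and males and -0.06 and 1.09 in null females and males. The constitutive relative Ppp1r15b rose by 0.32 ± 0.07. Oma1, the mitochondrial protease that relays stress to the response, fell by 0.52 ± 0.06, from 26.2 ± 4.08 to 18.6 ± 2.81 CPM. Of 8 partner transcription factors 3 rose, again near the share over all genes, namely Nfe2l2 (0.36 ± 0.10), Atf2 (0.22 ± 0.04) and Xbp1 (0.37 ± 0.08), with a median of 0.22. By stratum 3 and 1 rose in transgenic females and males and 0 and 2 in null females and males. The shares of all genes that rose there were 14.2%, 7.92%, 5.83% and 7.44%.

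Of 12 other enzymes of amino acid and one-carbon synthesis 2 rose and 5 fell, with a median of -0.06. The 2 that rose, named after their values were seen, were Cbs, which makes cystathionine (1.98 ± 0.50), and the mitochondrial folate enzyme Mthfd1l (1.20 ± 0.27). Both levels were low, with means at 0 and 10 mg/kg/day of 0.249 and 1.01 CPM for Cbs and 0.407 and 0.985 CPM for Mthfd1l. By DESeq2 1 of the 12 rose. Psph, which completes serine synthesis after Phgdh and Psat1, fell by 0.68 ± 0.09, from 10.6 ± 1.82 to 6.73 ± 1.60 CPM. Aldh1l2, another mitochondrial folate enzyme, fell by 1.09 ± 0.15 and the proline enzyme Pycr1 by 0.78 ± 0.12. With the adipocyte covariate Psph, Aldh1l2 and Pycr1 were at -0.62, -1.0 and -0.60 and still passed. Within serine synthesis, then, the first 2 enzymes were higher and the third lower at 10 mg/kg/day in the fit without the covariate. With the covariate Phgdh and Psat1 were at 0.10 and 0.26 and did not pass (edgeR adjusted p = 0.77 and 0.417).

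Of 8 amino acid transporters tested from a list of 9, 6 rose, with a median of 0.45. Slc7a5 (0.93 ± 0.19) and Slc3a2 (0.32 ± 0.07) encode the light and heavy chains of the leucine exchanger, and Slc1a5 (1.72 ± 0.32) imports glutamine. With the adipocyte covariate 1 of the 8 rose, Slc3a2 at 0.22, while Slc7a5 was at 0.46 and Slc1a5 at 0.27. Of 12 cytosolic tRNA synthetases 9 rose and 1 fell, with a median of 0.26, among them Mars (0.41 ± 0.05), Gars (0.40 ± 0.04) and Eprs (0.35 ± 0.06), and 9 rose with the covariate as well. By stratum 6 and 5 rose in transgenic females and males and 1 and 8 in null females and males. The shares of all genes that rose there were 14.2%, 7.92%, 5.83% and 7.44%. The medians were 0.27, 0.26, 0.03 and 0.43.

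Of 11 other stress targets tested from a list of 13, 7 rose and 0 fell, with a median of 0.52. By stratum 6 and 5 rose in transgenic females and males and 1 and 5 in null females and males. The shares of all genes that rose there were 14.2%, 7.92%, 5.83% and 7.44%. The medians were 0.81, 0.51, -0.02 and 0.92. In null females the single estimates ran from -0.78 for Ddit4 to 1.17 for Eif4ebp1, with Stc2 at 0.57 and Cdkn1a at 0.51. No test of a difference between strata is given for these lists. Eif4ebp1, a brake on cap-dependent translation, went from 43.9 ± 7.60 to 136.1 ± 64.9 CPM (1.63 ± 0.14). Cdkn1a, a cell cycle inhibitor, changed by 1.47 ± 0.19, and Stc2, a secreted glycoprotein, by 1.36 ± 0.16. With the covariate 9 of the 11 rose, with Eif4ebp1 at 1.64, Cdkn1a at 1.38 and Stc2 at 1.57. Fgf21 and Gdf15, circulating factors of mitochondrial stress in muscle, had too few counts to be tested.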

How the data were processed

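Messenger RNA of gastrocnemius from 48 mice was sequenced. Per the labels the tissue is gastrocnemius, although their extraction protocol speaks of liver. The values used are raw read counts per gene, from a single table deposited by the authors. The submitters' processing notes list HISAT2 and GRCm39, whereas the counting program and its strand setting were not given in the sources used here. Coordinates in the table are those of GRCm38: 98.3% of 54495 gene identifiers shared with GENCODE vM21 have the same start and end there.

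Genes were filtered with filterByExpr and scaled with TMM, and 1 coefficient per group was fitted by edgeR's quasi-likelihood test (edgeR 4.0.16, R 4.3.3; 36 residual degrees of freedom and a coefficient of variation between mice of 23.5%). Tests were two-sided, with p adjusted by Benjamini-Hochberg over all 15583 genes tested and a threshold of 0.05. CPM uses TMM-scaled library sizes, log2 CPM a prior count of 2, and fold changes are given ± standard error. Total counts of 11571142 to 19921061 set the counting precision. No source says that a group's mice came from separate litters or cages; p-values measure the spread between mice. Correlations were computed on log2 CPM with group means removed, and permuted within groups. No 2 libraries of the same group agreed within sampling noise (lowest chi-square per degree of freedom of 73 pairs 7.24). Pairs from different groups were not compared. The edgeR steps were tested on simulated data.

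All 10 genes are named. From each wider list the text names up to 3 genes that passed with the smallest p, and for Asns and Atf4 the 5 genes with the highest r among named genes with mean log2 CPM of at least 1; Fgf21, Gdf15 and the fat-cell genes are read as list members. The members and lists were chosen with earlier results of these data known. Alternatives were other size factors, library totals, other library sizes, 2 other filters, DESeq2 (1.42.0), limma voom (limma 3.58.1), a replicate block, an adipocyte covariate, leaving out 6 libraries or each library, and fits to the compared doses. Promoter stretches are from RefSeq (GRCm38.p6); all 10 genes matched.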

Additional observations from a re-analysis of the deposited data

Results flagged for a closer look

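Within 110 combinations of gene and group of 4 or 5 mice, 11 had a highest or lowest mouse whose gap to the next, as a share of the group's range, was above Dixon's 95% critical value; chance gives about 1 in 20. The widest gap was for Atf3 in hCYP2B6-Tg males at 1 mg/kg/day, where replicate 4 had 33 CPM and the others 1.57 to 1.68. Atf4 stood at 249.8 CPM in hCYP2B6-Tg male 10 replicate 4 (others 180.9 to 187.7), at 155.8 CPM in Cyp2b-null female 0 replicate 2 (others 137.7 to 139.6) and, on the low side, at 131.6 CPM in Cyp2b-null female 1 replicate 3 (others 140.9 to 142.6). Asns stood at 8.88 CPM in hCYP2B6-Tg female 10 replicate 3 (others 1.59 to 2.68).

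The remaining 6 were high values in controls. Phgdh stood at 3.69 CPM in hCYP2B6-Tg female replicate 4 (others 1.14 to 1.34), at 4.49 CPM in Cyp2b-null female replicate 1 (others 0.806 to 1.37) and at 3.53 CPM in hCYP2B6-Tg male replicate 5 (others 0.701 to 0.916). Psat1 stood at 2.72 CPM in that Cyp2b-null female (others 0.645 to 0.961). These 3 controls had adipocyte marker levels of 4.82, 4.22 and 3.98 mean log2 CPM, each the highest of its group. In hCYP2B6-Tg male replicate 1, Ddit3 stood at 12.1 CPM (others 8.33 to 9.31) and Mthfd2 at 5.01 CPM (others 3.56 to 3.91).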

How the results depend on the processing

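Over all strata, the count of genes higher at 10 than at 0 mg/kg/day was 7 with DESeq2 size factors, other library sizes, both other filters, DESeq2, limma voom and the groups compared alone, and 7 without each single library in turn. The count of genes that fell was 0 to 1 without single libraries (Mthfd2, at -0.29 without Cyp2b-null female 0 replicate 3, -0.30 without Cyp2b-null female 10 replicate 3 and -0.33 without Cyp2b-null male 10 replicate 1). The adipocyte covariate gave 1 higher and 1 lower, 1 transcription factor and 0 synthesis enzymes higher, and 2 higher at 10 against 1. With it, the sign of Phgdh changed to -0.25 in transgenic males and -0.35 in null females, and neither passed (edgeR adjusted p = 0.762 and 0.669). With that covariate the counts by stratum were 2 and 1 in transgenic females and males and 0 and 2 in null females and males. Without the 6 libraries 1 transcription factor rose, and 0 genes passed in males of either genotype and 1 in Cyp2b-null females.

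Library totals with no scaling factor moved the median of all genes from 0.04 to 0.25 and the calls from 3892 higher and 3511 lower (52.6% higher) to 7519 and 1647 (82% higher). Atf5 then passed (0.38), as 8 of the 10 rose, while 0 fell at 10 against 1, and 6 genes passed in transgenic males, 5 in null females and 2 in null males. Ddit3 was at 0.20 there, in place of -0.02, a move like that of all genes. In hCYP2B6-Tg males 1 passed with no filter, 4 with the stricter filter and 1 with limma voom; in Cyp2b-null males 0 passed with no filter and 2 each with the stricter filter, DESeq2 and limma voom. In hCYP2B6-Tg females at 1 against 0, 1 passed with limma voom. Without single libraries, calls ran from 2 to 6 in hCYP2B6-Tg females, 0 to 4 in hCYP2B6-Tg males, 0 to 3 in Cyp2b-null females, 0 to 2 in Cyp2b-null males, and 5 to 7 higher at 10 against 1. Member pairs that passed in correlation numbered 7, against 4 without the 6 libraries and 20 on library totals. For these other fits, shares over all genes within strata and at 10 against 1 are not given here. Those counts show how calls moved between fits and are no result about the members. The causes of these changes were not tested.

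Mouse numbers are shared between groups but same-numbered mice did not deviate together (r above 0.1 in 4 of 31 pairs, range -0.24 to 0.21). With groups of 3 to 5 mice this measure can miss a weak pairing. The main fit did not treat mice as paired. With the replicate block the count that rose was 7 and the log2 fold changes were 0.34 for Atf4, 1.68 for Asns and 2.20 for Phgdh. Depth limits Atf3, Trib3, Asns and Psat1 most, where a library can hold 2 or 3 counts, and groups of 3 to 5 mice limit every call within a stratum.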
